A study of Mus musculus with 15 samples.

Results

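Subcutaneous WEHI-164 tumors harvested on day 3 of intratumoral poly(I:C) treatment were compared with untreated tumors harvested on day 0, gene by gene across the transcriptome. The comparison asked which transcripts differed after a few daily injections. It took 6 of the 15 tumors of the series, 3 of each harvest day, chosen by the time point label of each tumor. Of 32544 entries in the deposited table, 15494 genes passed the filter on low counts and were tested. WEHI-164 is a fibrosarcoma line of BALB/c mice. All 6 tumors grew from that line in female BALB/c hosts with a wild-type genotype label, so the results describe a single line and strain. The day 3 tumors were injected daily with 1 µg poly(I:C) in 25 µL, from a schedule of up to 6 doses, and the day 0 tumors received nothing. A supplement of the study gives a higher daily dose for this course, so the dose is uncertain. No vehicle-injected tumors were analysed here, so poly(I:C), the injections themselves and 3 more days of growth cannot be told apart. Surrounding tissue was trimmed at harvest, and RNA was taken from the remaining tumor tissue, so malignant and host cells were measured together. In such bulk samples, more cells of a type and more RNA per cell cannot be told apart.

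Poly(I:C), a man-made RNA duplex, resembles the genome or replication intermediate of many viruses. It is bound by Toll-like receptor 3 in endosomes and by the helicases MDA5 and RIG-I in the cytosol, which act through the adaptors TRIF and MAVS on the transcription factors IRF3 and IRF7 to switch on type I interferon genes. Secreted interferon then signals through its receptor to a transcription factor complex, which binds interferon-stimulated response elements in the promoters of antiviral genes. In tumors the same pathway is known for raising antigen presentation and for drawing in lymphocytes and monocytes.

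Promoters of some, but not all, of the interferon-induced genes whose levels were followed below hold a match to the sequence element on which that complex acts. The element was searched in RefSeq promoter sequences on GRCm38.p6, in the 250 bases before each listed start site, as the letters GAAA, any 2 bases and GAAA again, on both strands. Promoters were found for 27 of 34 interferon-induced antiviral effector genes, and 13 of their 32 promoters (40.6%) held a match. Promoters were found for only 9 of 16 interferon-inducible GTPase genes, and 9 of their 10 promoters (90%) held a match. The share was 2.98% among all 32851 promoters and 2.71% among those of the genes tested. It was 4.48% among promoters of genes whose 3 day 3 tumors all lay above the 3 day 0 tumors, and 2.38% among those where all lay below. The gamma-activated site, searched as TTCNNNGAA, was held by 6 of the 10 GTPase promoters (60%), 5 of the 32 effector promoters (15.6%) and 7.02% of all promoters. These matches describe letters only. Isg15, Rsad2 and Igtp are shown because they stand for both families and their levels follow, and Ifit3 because it holds a pair of separated matches. Matches are in capitals, overlapping matches run together, and a match on the opposite strand reads TTTC, 2 bases and TTTC. Each stretch ends at the base before the start site and is written 5′ to 3′ on the strand of the gene.
Isg15 (chr4:156200819-156200968, minus strand): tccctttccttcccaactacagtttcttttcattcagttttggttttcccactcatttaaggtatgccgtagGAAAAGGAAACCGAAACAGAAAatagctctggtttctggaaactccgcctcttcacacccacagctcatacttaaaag
Rsad2 (chr12:26456453-26456602, minus strand): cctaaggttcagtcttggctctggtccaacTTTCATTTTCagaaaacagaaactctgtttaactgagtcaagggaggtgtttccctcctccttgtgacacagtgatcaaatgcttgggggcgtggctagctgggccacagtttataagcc
Igtp (chr11:58199406-58199555, plus strand): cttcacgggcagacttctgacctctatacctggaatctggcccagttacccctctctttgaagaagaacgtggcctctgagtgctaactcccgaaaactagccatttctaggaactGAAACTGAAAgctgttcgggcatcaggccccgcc
Ifit3 (chr19:34583279-34583528, plus strand): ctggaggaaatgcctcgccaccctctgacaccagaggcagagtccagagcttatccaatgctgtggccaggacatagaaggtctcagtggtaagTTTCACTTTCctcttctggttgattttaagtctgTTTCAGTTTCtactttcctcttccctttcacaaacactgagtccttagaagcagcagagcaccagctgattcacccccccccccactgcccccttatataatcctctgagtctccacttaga

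The libraries were of similar depth, with 24.9 to 29.8 mega-counts on day 0 and 24.8 to 27.3 mega-counts on day 3. A count of 3, the most that a count of 0 allows, was 0.101 to 0.121 CPM, the count scaled to a common library total. WEHI-164 is of mesenchymal origin, and Vim, the intermediate filament gene of such cells, stood at 4696, 4671 and 5165 CPM on day 0 and 2763, 4213 and 4945 CPM on day 3. Values are given here and below in the order of replicates 1, 2 and 3, so the first day 3 value is always replicate 1. Of the epithelial and keratinocyte list, 5 of 10 genes did not pass the filter on low counts. Summed over all 10, the level was 221, 148 and 160 CPM on day 0 and 41.3, 168 and 192 CPM on day 3. Day 3 replicate 1 stood apart from the other 14 tumors of the series. Its mean correlation with them was 0.884, against 0.956 or more for each other tumor. The summed level of 22 skeletal muscle genes was 5867 CPM in it and 399 to 745 CPM in the other 14, and that of 15 adipocyte genes was 912 CPM against 54.1 to 215 CPM. It was also highest for collagen and matrix genes, at 36306 CPM against 5098 to 13178 CPM, and lowest for DNA replication and cell cycle genes, at 2158 CPM against 4880 to 6067 CPM. Day 3 replicates 2 and 3 had muscle sums of 735 and 535 CPM, against 640.0 to 745 CPM on day 0. Results below are therefore given with all tumors and without that tumor where they turn on it, and its part in the values that include it was not tested beyond leaving it out.

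**Figure D1:**
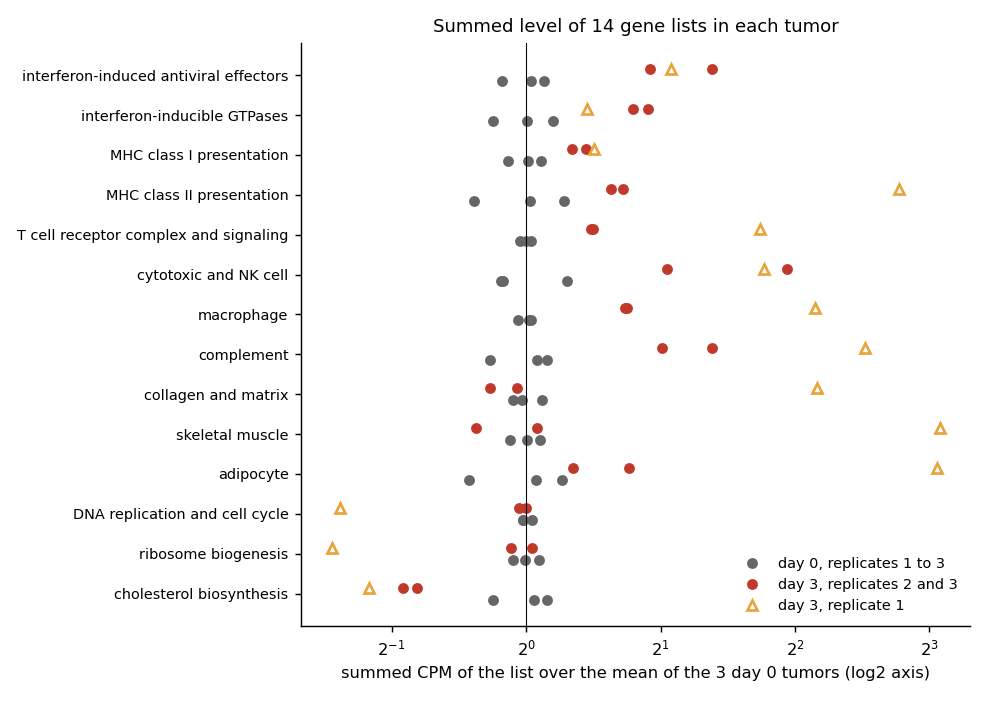
Summed CPM of 14 gene lists in each of the 6 tumors, divided by the mean of the 3 day 0 tumors, on a log2 axis. Grey points are day 0 tumors, red points are day 3 replicates 2 and 3, and the open triangle is day 3 replicate 1, which lies far to the right for muscle, fat and matrix lists and far to the left for cell cycle and ribosome biogenesis lists. In the T cell list, Tcf7 alone held 139, 105 and 105 CPM of day 0 sums of 210, 198 and 205 CPM. That row therefore mixes the lower Tcf7 of day 3 with the higher levels of most other members.

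Across the transcriptome, interferon-response, lymphocyte, monocyte, macrophage and complement genes were higher on day 3, and genes of cholesterol synthesis were lower, whether or not day 3 replicate 1 was included. Muscle, fat, collagen and MHC class II genes were higher mainly with that tumor. In the quasi-likelihood test of edgeR, fitted over all 15 tumors, 0 genes (0%) passed a Benjamini-Hochberg adjusted p of 0.05 with it. None passed without it either. The smallest adjusted p-values were 0.104 and 0.207. At an unadjusted p under 0.05, 2999 genes (19.4%) were higher and 1877 (12.1%) were lower with all tumors. Without day 3 replicate 1 the counts were 1078 higher (6.96%) and 1016 lower (6.56%), of which 938 and 831 were also in the first set. The 3 day 3 tumors lay entirely above the day 0 tumors for 3000 genes (19.4%) and entirely below for 2937 (19%). Counts of list members given below are read against these shares. The median log2 fold change of all genes was -0.02 with all tumors and -0.0043 without the deviating tumor. Scaling between libraries holds most genes near 0, so these medians cannot show whether levels shifted as a whole. DESeq2 called 1397 genes higher and 606 lower with all tumors, and limma voom with quality weights called 722 higher and 464 lower.

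Without day 3 replicate 1 the number of genes called differed between tools. DESeq2 over the remaining 14 tumors called 86 genes (0.555%), 43 higher and 43 lower. An edgeR fit of only the 5 remaining tumors of day 0 and day 3 called 1196 higher (7.72%) and 528 lower (3.41%). That fit was added after the data were seen, and it rests on 2 day 3 tumors. Between these lists, 81 genes were shared, which is 94.2% of the DESeq2 calls and 4.7% of the others. A gene is called higher or lower below without further comment when its value lay on that side, and any p is given as adjusted or unadjusted. The labels do not say that the tumors came from separate experiments, so p-values measure the spread between these tumors.

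**Figure D2:**
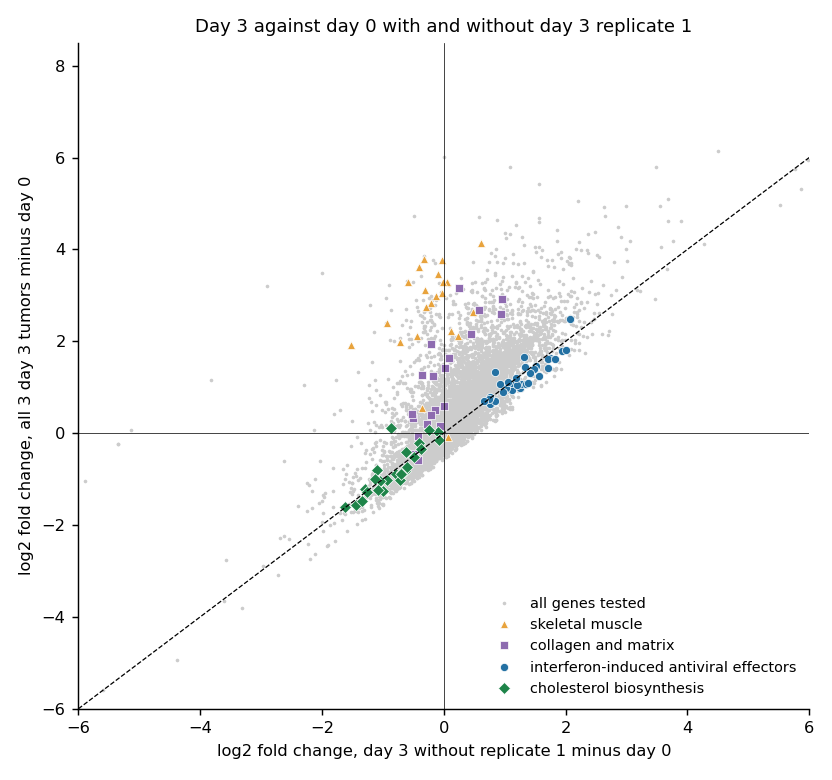
Log2 fold change of day 3 against day 0 for 15494 genes, with all 3 day 3 tumors on the vertical axis and without day 3 replicate 1 on the horizontal axis, and the dashed line marking equal values. Antiviral effector genes (blue) and cholesterol genes (green) lie along the line, while muscle (orange) and matrix (purple) genes lie above it, and 12 genes fall outside the axes.

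The genes that stood out most were ranked by the smaller of their log2 fold changes with and without day 3 replicate 1, among genes with a mean of at least 5 CPM, no overlap of tumors and an unadjusted p under 0.05 in both fits, which 678 higher and 720 lower genes met. For the genes so ranked, separation of the groups with and without that tumor was therefore fixed by the rule and is not a separate result. The 12 highest were Cxcl13, Slfn4, Irf7, Ccl5, Fpr1, Cd300e, Slc11a1, Cfb, Ms4a4c, Slamf7, Siglece and Ly6c2. Ly6c2 closed the list at 2.11 and Ifi27l2a was the first outside it at 2.07. Fold changes are log2 values with their standard error.

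Cxcl13, the chemokine that draws B cells and follicular helper T cells (ENSMUSG00000023078.6, GRCm38 chromosome 5, 95956951 to 95961068, plus strand), stood at 0.0337, 2.49 and 2.40 CPM on day 0 and 77.9, 4.15 and 36.9 CPM on day 3. The day 0 value of replicate 1 is a single count, and day 3 replicate 2 lay close to day 0. Its log2 fold change was 4.62 ± 1.36 with all tumors and 3.68 ± 1.32 without day 3 replicate 1. Slfn4, an interferon-inducible Schlafen gene of myeloid cells (ENSMUSG00000000204.16, chromosome 11, 83175186 to 83190216, plus strand), stood at 41.6, 46.3 and 41.0 CPM on day 0 and 201, 426 and 154 CPM on day 3. Its 3 day 0 tumors were close together, every day 3 tumor was far above them, and replicate 2 was the highest. The difference was 2.60 ± 0.76 with and 2.76 ± 0.83 without the deviating tumor, with adjusted p = 0.00515 in the 5-tumor edgeR fit and adjusted p = 0.138 by DESeq2 without it.

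Irf7, the interferon regulatory factor that amplifies type I interferon production (ENSMUSG00000025498.15, chromosome 7, 141262706 to 141266481, minus strand), stood at 60.4, 97.1 and 85.2 CPM on day 0 and 560.3, 579 and 359 CPM on day 3. The groups were far apart, and leaving out day 3 replicate 1 hardly altered the difference, which was 2.63 ± 0.51 with it and 2.54 ± 0.56 without it. DESeq2 without that tumor gave an adjusted p of 0.0275, and the 5-tumor edgeR fit 0.00251. The Irf7 gene model overlaps Phrf1, as 13 of the 24 named genes overlap another annotated gene, and strand was not stated, so reads of overlapping genes cannot be told apart.

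Ccl5, a chemokine of T cells and NK cells that attracts other leukocytes, stood at 21.5, 25.8 and 20.5 CPM on day 0 and 129, 178 and 72.3 CPM on day 3, a difference of 2.48 ± 0.67 that was 2.47 ± 0.73 without day 3 replicate 1. All 3 day 3 tumors were above day 0, and replicate 2 was the highest. Ly6c2, a surface protein of inflammatory monocytes, stood at 11.4, 19.0 and 15.1 CPM on day 0 and 100.2, 92.7 and 38.0 CPM on day 3, with replicate 3 the lowest of day 3. Fpr1, a receptor for bacterial formyl peptides on phagocytes, stood at 0.944, 4.17 and 2.0 CPM on day 0 and 17.6, 13.4 and 12.4 CPM on day 3, with the day 3 tumors close to one another. Cd300e, a monocyte receptor, stood at 0.135, 6.89 and 2.60 CPM on day 0 and 61.2, 11.1 and 22.9 CPM on day 3, where day 0 itself spread widely and the 5-tumor fit gave an adjusted p of 0.0757.

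Slc11a1, the metal transporter of phagosomes, stood at 15.9, 40.2 and 32.1 CPM on day 0 and 277, 130.4 and 136 CPM on day 3. Slamf7, a receptor of NK cells, plasma cells and macrophages, stood at 4.82, 8.82 and 6.37 CPM on day 0 and 66.2, 29.2 and 29.0 CPM on day 3. In both genes day 3 replicate 1 was the highest tumor, and the ranking rule required that the groups did not overlap. Ms4a4c, a member of the MS4A membrane protein family, stood at 15.9, 34.2 and 25.8 CPM on day 0 and 106, 141 and 92.1 CPM on day 3, and Siglece, an inhibitory sialic acid receptor of myeloid cells, at 0.674, 3.02 and 2.28 CPM on day 0 and 17.0, 3.49 and 13.7 CPM on day 3. Siglece of day 3 replicate 2 was barely above the highest day 0 tumor. Slfn4, Ly6c2, Ms4a4c and Siglece have close paralogs, and their counts are uncertain to the extent that reads were divided among them.

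**Figure D3:**
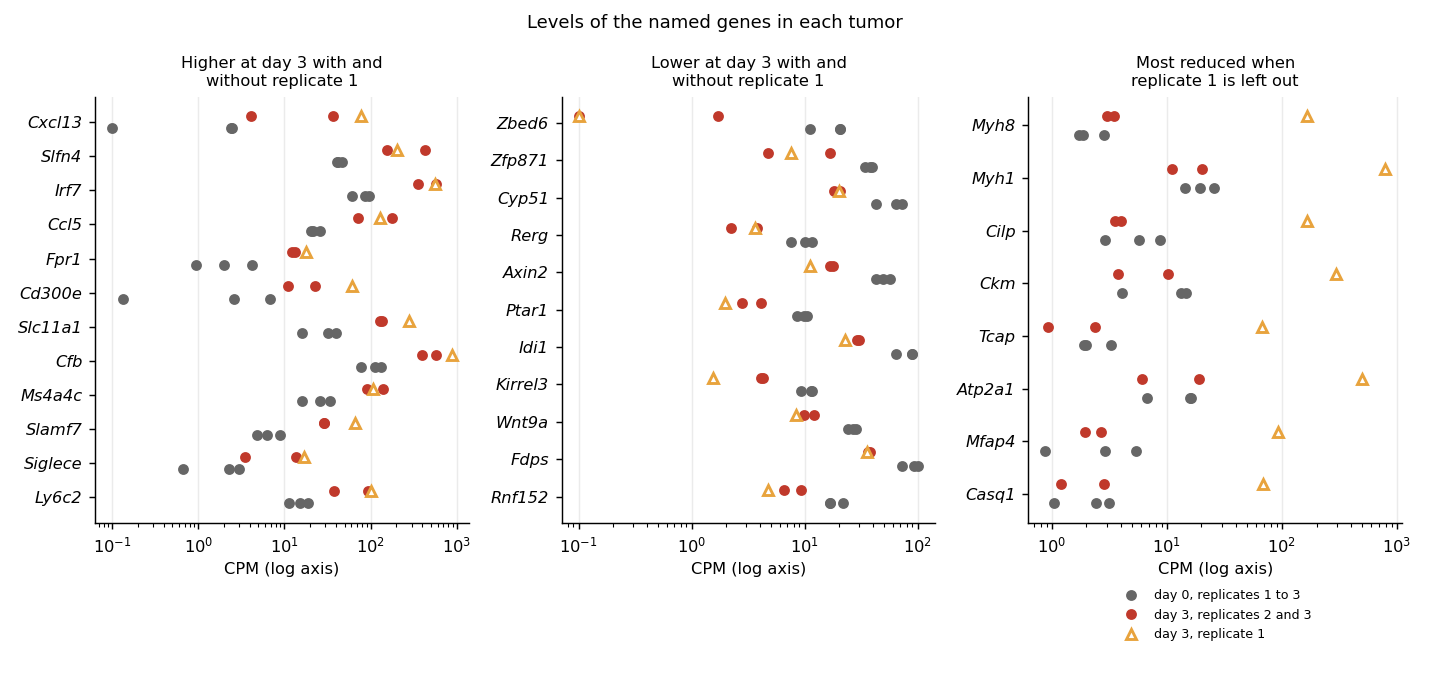
CPM of the named genes in each tumor on a log axis, with values under 0.1 CPM drawn at 0.1, for the 12 highest genes, 11 of the 12 lowest genes and the 8 genes whose fold change dropped most without day 3 replicate 1. Grey points are day 0, red points day 3 replicates 2 and 3, and open triangles day 3 replicate 1, which stands alone in the panel on the right and lies near the other day 3 tumors for most genes of the panels on the left and in the middle.

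The 12 lowest genes included Zbed6, Zfp871, Cyp51, Rerg, Axin2, Ptar1, Idi1, Kirrel3, Wnt9a, Fdps and Rnf152. Rnf152 closed the list at -1.21, and Hmgcs1 came next with the same rounded value. Cyp51, Idi1 and Fdps encode enzymes of cholesterol synthesis. Axin2, the scaffold of the beta-catenin destruction complex and a target of Wnt signaling (chromosome 11, 108920349 to 108950783, plus strand), stood at 57.5, 42.7 and 49.2 CPM on day 0 and 11.2, 16.9 and 17.7 CPM on day 3. The groups were well separated, at -1.71 ± 0.34 with all tumors and -1.53 ± 0.38 without day 3 replicate 1, and DESeq2 without that tumor called it, at adjusted p = 0.0159. Wnt9a, which encodes a Wnt ligand, stood at 28.4, 26.7 and 24.3 CPM on day 0 and 8.42, 9.85 and 12.1 CPM on day 3, a difference of -1.38 ± 0.35 or -1.27 ± 0.40 with an adjusted p of 0.00386 in the 5-tumor edgeR fit.

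Rerg, a small GTPase of the RAS superfamily, stood at 7.52, 11.6 and 10.1 CPM on day 0 and 3.62, 2.24 and 3.77 CPM on day 3, and Kirrel3, an adhesion molecule of the immunoglobulin superfamily, at 9.20, 11.4 and 11.6 CPM on day 0 and 1.53, 4.27 and 4.12 CPM on day 3. Ptar1, which encodes a prenyltransferase alpha subunit repeat protein, stood at 10.4, 9.90 and 8.61 CPM on day 0 and 1.97, 2.79 and 4.09 CPM on day 3, and Rnf152, a lysosomal ubiquitin ligase, at 16.8, 21.9 and 16.6 CPM on day 0 and 4.75, 6.54 and 9.38 CPM on day 3. In all 4, day 3 was lower in every tumor, as the ranking rule required. Zfp871, a zinc finger gene, stood at 39.8, 38.3 and 34.5 CPM on day 0 and 7.53, 4.78 and 16.9 CPM on day 3. Zbed6 stood at 20.5, 20.7 and 11.1 CPM on day 0 and 0, 0 and 1.71 CPM on day 3, but it lies inside Zc3h11a on the same strand, so the reads of the overlapping models cannot be told apart and no fold is given.

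Double-stranded RNA sensing genes were moderately higher on day 3. Of 14 listed and tested, 8 passed an unadjusted p under 0.05 as higher with all tumors and 9 without day 3 replicate 1, none as lower, and 8 were called higher in the 5-tumor edgeR fit. Their median log2 fold change was 0.46 with and 0.52 without that tumor. Among all genes, 19.4% passed as higher with all tumors and 6.96% without replicate 1, and the 5-tumor fit called 7.72% higher. Ifih1, which encodes MDA5, the cytosolic sensor of long double-stranded RNA, stood at 52.9, 64.1 and 57.7 CPM on day 0 and 96.5, 122 and 94.6 CPM on day 3. The groups did not overlap, the difference was 0.84 ± 0.21 or 0.90 ± 0.23, and DESeq2 without replicate 1 gave an adjusted p of 0.0467. Dhx58, which encodes LGP2, a regulator of MDA5, stood at 24.7, 35.7 and 32.6 CPM on day 0 and 77.9, 106 and 66.6 CPM on day 3, also without overlap, with an adjusted p of 0.0276 by the same DESeq2 fit. Zbp1, a sensor of Z-form nucleic acid that can trigger necroptosis, stood at 97.9, 138 and 123 CPM on day 0 and 225, 340.3 and 254 CPM on day 3. Tlr3, the endosomal receptor, had a log2 fold change of 0.75 ± 0.22 and 0.79 ± 0.25 without replicate 1. The kinase gene Ikbke was at 1.54 ± 0.40 and 1.14 ± 0.39, while the adaptor Mavs was at -0.10 ± 0.11 and Irf3 at 0.22 ± 0.14 with all tumors, neither past an unadjusted p of 0.05.

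Genes of interferon signal transduction were higher too. Of 15, 9 passed an unadjusted p under 0.05 as higher, 3 did without day 3 replicate 1, and the 5-tumor fit called 10 higher and 1 lower, the kinase gene Jak2. The median was 0.61 with and 0.52 without the tumor. The shares of all genes passing as higher were 19.4% with it and 6.96% without it. In the 5-tumor fit 7.72% were called higher and 3.41% lower. Irf1, a target of interferon gamma, stood at 328, 355 and 333 CPM on day 0 and 374, 507 and 462 CPM on day 3, a difference of 0.40 ± 0.29 that did not pass an unadjusted p of 0.05. Usp18, the protease that removes ISG15 and dampens receptor signaling, stood at 23.4, 32.0 and 26.2 CPM on day 0 and 42.8, 99.6 and 60.0 CPM on day 3. Day 3 replicate 1 was the lowest of its group, and the difference was 1.31 ± 0.40 with it and 1.56 ± 0.41 without it, called by DESeq2 in the latter at an adjusted p of 0.0311.

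The antiviral effectors were higher throughout. All 34 genes tested were higher on day 3 in every tumor, without overlap with day 0, and 33 of 34 passed an unadjusted p under 0.05 with all tumors as well as without day 3 replicate 1, 32 of them in both, where 19.4% and 6.96% of all genes passed as higher. The 5-tumor edgeR fit called all 34 higher, and DESeq2 without replicate 1 called 12. The median difference was 1.22, from 0.62 for Ifitm3 to 2.48 for Ifi27l2a, and 1.32 without the tumor. The median of all genes was near 0 in both fits. Summed over the list, the level was 2375, 2945 and 2755 CPM on day 0 and 5686, 7024 and 5091 CPM on day 3.

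Isg15, a ubiquitin-like modifier whose promoter above holds 3 overlapping matches, stood at 35.1, 43.1 and 37.2 CPM on day 0 and 56.1, 166 and 85.5 CPM on day 3. Day 3 replicate 2 was highest and replicate 1 lowest, though still above day 0, so the difference was larger without replicate 1, at 1.71 ± 0.44 against 1.41 ± 0.44, with an adjusted DESeq2 p of 0.0219 in either case. Ifit3, which binds viral RNA in a complex with IFIT1, stood at 36.3, 45.9 and 38.5 CPM on day 0 and 109, 175 and 91.3 CPM on day 3, a difference of 1.63 ± 0.50. It has near-identical neighbors, and Ifit3b was at 1.80 ± 0.57, so both counts are uncertain. Rsad2, or viperin, an enzyme that makes a chain-terminating nucleotide, stood at 42.7, 44.6 and 39.7 CPM on day 0 and 50.5, 163 and 87.9 CPM on day 3. Only replicate 1 of day 3 was close to day 0, and the difference was 1.25 ± 0.60 with it and 1.57 ± 0.62 without it. Bst2, the tetherin that holds budding virions at the membrane, stood at 144, 180.1 and 162 CPM on day 0 and 197, 478 and 340.2 CPM on day 3, with an adjusted DESeq2 p of 0.00782 when replicate 1 was left out. The oligoadenylate synthetase genes Oas1a, Oas2, Oas3 and Oasl2, whose products activate RNase L or sense RNA, were at 1.47, 1.39, 1.81 and 1.31, and at 1.51, 1.47, 2.01 and 1.41 without replicate 1. DESeq2 called each of these 4 in the latter fit.

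The interferon-inducible GTPases, which attack the vacuoles of intracellular pathogens, were higher as well. Of 16 tested, 15 were higher and Gvin1 had no count in these 6 tumors. At an unadjusted p under 0.05, 7 passed as higher with all tumors and 8 without day 3 replicate 1, against 19.4% and 6.96% of all genes. The groups did not overlap in 12, against 19.4% of all genes as higher. The 5-tumor fit called 15, against 7.72% of all genes as higher. The median was 0.75 with and 0.88 without the tumor. Gbp2 stood at 232, 329 and 287 CPM on day 0 and 364, 479 and 467 CPM on day 3 and Gbp5, which promotes inflammasome activation, at 60.2, 80.4 and 77.6 CPM on day 0 and 166, 139 and 133 CPM on day 3. Igtp, or Irgm3, stood at 247, 308 and 281 CPM on day 0 and 335, 631 and 486 CPM on day 3. Day 3 replicate 1 was nearest to day 0 for Gbp2 and Igtp and farthest from it for Gbp5. The GBP and IRG families hold close paralogs, so single members are uncertain.

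MHC class I genes were modestly higher. All 20 were higher with and without day 3 replicate 1, 18 of them without overlap against 19.4% of all genes. In the respective fits 6 and 7 passed an unadjusted p under 0.05, against 19.4% and 6.96% of all genes. The 5-tumor edgeR fit called 14. The median was 0.46 or 0.50, a smaller step than for the antiviral effectors. H2-K1, a class I heavy chain, stood at 1043, 1222 and 1137 CPM on day 0 and 1899, 1593 and 1463 CPM on day 3, and B2m, the light chain, at 2001, 2345 and 2289.6 CPM on day 0 and 3039, 2772 and 2600.5 CPM on day 3. Tap1, the peptide transporter subunit, stood at 262, 338 and 314 CPM on day 0 and 435, 484 and 445 CPM on day 3, and Nlrc5, the class I transactivator, at 191, 224 and 222 CPM on day 0 and 238, 288 and 305 CPM on day 3. In these 4 genes each day 3 tumor was above each day 0 tumor, by less than 1 on the log2 scale on average. Psmb9, a subunit of the immunoproteasome, stood at 127, 194 and 149 CPM on day 0 and 206, 255 and 214 CPM on day 3, with a difference of 0.52 ± 0.24. The heavy chain genes are polymorphic and similar, so reads may have been divided among them.

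MHC class II genes differed mainly in day 3 replicate 1. Summed over the 10 genes, the level was 1586, 2518 and 2114 CPM on day 0 and 14139.7, 3423 and 3216 CPM on day 3. Of the 10, 4 passed an unadjusted p under 0.05 with all tumors and 0 without replicate 1, where the 5-tumor fit called only Ctss, the cathepsin that trims the invariant chain. The median was 1.58 with and 0.40 without it. Among all genes, 19.4% passed as higher with all tumors and 6.96% without replicate 1. H2-Aa, a class II alpha chain, stood at 183, 398 and 308 CPM on day 0 and 2524, 362 and 363 CPM on day 3, so that replicates 2 and 3 lay within the range of day 0. Cd74, the invariant chain, stood at 371, 743 and 579 CPM on day 0 and 4483, 844 and 767 CPM on day 3, with replicates 2 and 3 just above the day 0 range. Ciita, the class II transactivator, stood at 12.8, 28.1 and 22.6 CPM on day 0 and 116, 29.2 and 28.1 CPM on day 3, a difference of 1.44 ± 0.69 with replicate 1 and 0.44 ± 0.63 without it.

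T cell genes were higher in all 3 day 3 tumors, by more in replicate 1. Of 21, 20 passed an unadjusted p under 0.05 as higher with all tumors and 6 without replicate 1, and 1, Tcf7, passed as lower in both. The 5-tumor edgeR fit called 19 higher and Tcf7 lower. The median was 2.03 or 1.36. The background was 19.4% of all genes higher with all tumors and 6.96% without replicate 1. Cd3e, a signaling chain of the T cell receptor, stood at 2.19, 3.57 and 3.48 CPM on day 0 and 28.5, 6.66 and 9.96 CPM on day 3. Cd8b1, the beta chain of the CD8 coreceptor, stood at 1.25, 2.61 and 2.20 CPM on day 0 and 24.8, 5.77 and 7.90 CPM on day 3. Lck, the kinase bound to CD4 and CD8, stood at 7.52, 8.94 and 10.9 CPM on day 0 and 64.1, 26.3 and 21.7 CPM on day 3. In each, replicates 2 and 3 were above every day 0 tumor at low levels, and replicate 1 was higher still. The differences without replicate 1 were 1.44 ± 0.78 for Cd3e, 1.77 ± 0.78 for Cd8b1 and 1.40 ± 0.62 for Lck. Cd4 was at 2.29 ± 0.93 with and 0.88 ± 0.85 without it. Tcf7, which encodes TCF1, a transcription factor of naive and memory T cells that also acts in Wnt signaling, stood at 139, 105 and 105 CPM on day 0 and 44.3, 75.8 and 74.5 CPM on day 3.

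Cytotoxic and NK cell genes were higher by a similar amount, and replicate 1 was not always the highest. Of 20, 17 passed an unadjusted p under 0.05 as higher with all tumors and 12 without day 3 replicate 1, none passed as lower, and the 5-tumor fit called 17. The median was 2.04 or 1.57. As a share of all genes, 19.4% passed as higher with all tumors and 6.96% without that tumor. Gzmb, the granzyme B gene, stood at 33.8, 28.9 and 40.4 CPM on day 0 and 72.7, 142 and 79.6 CPM on day 3, with replicate 2 highest. Nkg7, a granule membrane protein, stood at 4.11, 5.73 and 6.85 CPM on day 0 and 49.5, 25.3 and 17.3 CPM on day 3, and Ncr1, the NKp46 receptor that marks NK cells, at 3.54, 4.69 and 5.49 CPM on day 0 and 45.9, 19.4 and 12.5 CPM on day 3. Both were above day 0 in all 3 day 3 tumors, at 1.95 ± 0.79 and 1.81 ± 0.74 without replicate 1. Prf1, or perforin, stood at 17.6, 22.6 and 38.4 CPM on day 0 and 38.3, 74.1 and 44.6 CPM on day 3, where day 3 replicate 1 lay just under the highest day 0 tumor. Ifng was at 1.59 ± 0.66 with and 1.68 ± 0.72 without replicate 1.

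Immune checkpoint genes followed. All 12 were higher, 7 past an unadjusted p of 0.05 with all tumors and 3 without day 3 replicate 1. Among all genes tested, 19.4% passed as higher with all tumors and 6.96% without that tumor. The 5-tumor edgeR fit called 9 of the 12, and their medians were 1.37 and 1.00. Pdcd1, the PD-1 receptor gene, stood at 1.82, 2.64 and 2.40 CPM on day 0 and 16.2, 5.33 and 6.58 CPM on day 3, and Lag3 at 7.49, 7.52 and 6.37 CPM on day 0 and 38.4, 17.9 and 15.9 CPM on day 3. Ctla4 stood at 4.35, 4.17 and 4.36 CPM on day 0 and 13.9, 7.32 and 9.77 CPM on day 3. These receptors were above day 0 in every day 3 tumor, at low levels. Cd274, which encodes the ligand PD-L1, was at 1.33 ± 0.53 with and 1.30 ± 0.60 without replicate 1.

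Chemokine genes were mixed. Of 32 ligands and receptors, 30 were higher, 13 past an unadjusted p of 0.05 with all tumors and 10 without day 3 replicate 1, but only 5 in both, and none passed as lower in either. Their median was 0.95 or 0.69. By comparison, 19.4% and 6.96% of all genes passed as higher in the respective fits. Cxcl9, an interferon gamma-induced ligand of CXCR3, stood at 147, 262 and 251 CPM on day 0 and 529, 363 and 345 CPM on day 3, and Cxcr3 itself at 0.910, 1.86 and 1.48 CPM on day 0 and 24.7, 3.86 and 3.85 CPM on day 3. Cxcl16, the ligand of CXCR6, stood at 108, 144 and 143 CPM on day 0 and 319.5, 187 and 202 CPM on day 3. The groups did not overlap for these 3 genes, as for 19.4% of all genes in that direction. Cxcl9 did not pass an unadjusted edgeR p of 0.05 in either fit, and Cxcr3 and Cxcl16 passed only with replicate 1. Ccl6, a myeloid chemokine, stood at 166, 88.7 and 94.7 CPM on day 0 and 368, 167 and 118 CPM on day 3, with overlap. Cxcl10 and Cxcl11, the other CXCR3 ligands, were at 0.81 and 1.11 with all tumors and at 1.12 and 1.45 without replicate 1. Ccl3 and Ccl4, chemokines of macrophages and activated lymphocytes, were at 1.65 and 1.79, and at 1.64 and 1.77 without it. Ccl21a, which guides lymphocytes to lymph nodes and has near-identical copies, went from 4.74 to -0.49 when replicate 1 was left out.

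Macrophage genes were higher, with the largest values in day 3 replicate 1. The summed level of the 22 genes was 4219, 4455 and 4518 CPM on day 0 and 19494, 7405 and 7338 CPM on day 3. Of these, 15 passed an unadjusted p under 0.05 as higher with all tumors and 11 did without replicate 1, all 11 of them in both, while 1 gene, the mannose receptor gene Mrc1, passed as lower without it at -0.90 ± 0.29. The 5-tumor edgeR fit called 17 higher, and the median was 1.45 or 0.96. Of the genes tested, 19.4% passed as higher with all tumors and 6.96% without replicate 1. Adgre1, the F4/80 antigen, stood at 65.2, 96.8 and 78.8 CPM on day 0 and 467, 192 and 247 CPM on day 3, and C1qa, a chain of complement C1q made by macrophages, at 318, 430.1 and 433 CPM on day 0 and 1634, 677 and 822 CPM on day 3. For both, replicates 2 and 3 were above every day 0 tumor. Fcgr4, an activating antibody receptor, stood at 41.3, 84.3 and 59.0 CPM on day 0 and 336, 152 and 178 CPM on day 3. Arg1, an arginine-degrading enzyme, stood at 307, 145 and 147 CPM on day 0 and 117, 248 and 167 CPM on day 3, with the groups mixed and a difference of -0.17 ± 0.44 that turned to 0.06 ± 0.48 without replicate 1, neither past an unadjusted p of 0.05.

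Monocyte genes were higher in 8 of 10, and 7 passed an unadjusted p under 0.05 as higher, 4 without day 3 replicate 1, with a median of 1.31 or 1.13. Plac8, of inflammatory monocytes, stood at 55.4, 98.3 and 79.2 CPM on day 0 and 223, 209 and 127 CPM on day 3. Vcan, which is listed as a monocyte gene but is also a matrix proteoglycan of mesenchymal cells, was lower in both fits, at -0.83 ± 0.22 and -0.69 ± 0.23. Dendritic cell, neutrophil, B cell and mast cell lists were less clear. Of 12 dendritic cell genes, 4 passed as higher and 1 as lower with all tumors, and 1 and 1 without replicate 1, with medians of 1.05 and 0.14. Of 9 neutrophil genes, 1 and 1 passed with all tumors and 0 without it, with medians of 1.09 and 0.10. Of 9 B and plasma cell genes, 7 passed as higher with it and 2 without it, at 2.31 and 1.39, and the summed level was 13.6, 30.5 and 25.5 CPM on day 0 and 344, 69.2 and 51.9 CPM on day 3. Of 10 mast cell genes, 3 passed as higher with it and 0 without it. Over all genes, 19.4% and 12.1% passed as higher and lower with all tumors, and 6.96% and 6.56% without replicate 1.

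Complement genes were higher in all 14 cases, with or without day 3 replicate 1. Of these, 10 passed an unadjusted p under 0.05 with all tumors and 5 without the tumor, and 9 were called in the 5-tumor edgeR fit, with medians of 1.52 and 0.97. Cfb, the factor B of the alternative pathway, was among the 12 highest genes and stood at 76.7, 133 and 112 CPM on day 0 and 879, 581 and 394 CPM on day 3. C3, the central component, stood at 150.2, 167 and 173 CPM on day 0 and 1491, 565 and 334 CPM on day 3, and Serping1, the C1 inhibitor, at 21.6, 57.2 and 52.3 CPM on day 0 and 610.5, 139 and 73.9 CPM on day 3. The 3 genes did not overlap between days, but for Serping1 the difference without replicate 1, 1.29 ± 1.05, was close to its standard error. Among 15 genes of cell death, 7 passed as higher and 1 as lower, and 5 and 1 did without replicate 1. Of all genes, 19.4% and 12.1% passed as higher and lower with all tumors, and 6.96% and 6.56% without it. Casp1, the inflammasome protease, stood at 55.6, 78.8 and 67.1 CPM on day 0 and 107, 109 and 112 CPM on day 3. Mlkl, the executioner of necroptosis, stood at 74.4, 85.8 and 82.6 CPM on day 0 and 50.5, 111 and 102 CPM on day 3, lowest in day 3 replicate 1, so that its difference was 0.12 ± 0.23 with that tumor and 0.40 ± 0.14 without it. Fas, a death receptor, stood at 9.54, 9.23 and 9.37 CPM on day 0 and 16.8, 15.3 and 12.5 CPM on day 3. Pmaip1, which encodes the BH3 protein NOXA, was the gene that was lower, at -0.95 ± 0.14 and -0.80 ± 0.12, and DESeq2 called it without replicate 1 at an adjusted p of 1.13e-05.

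**Figure D4:**
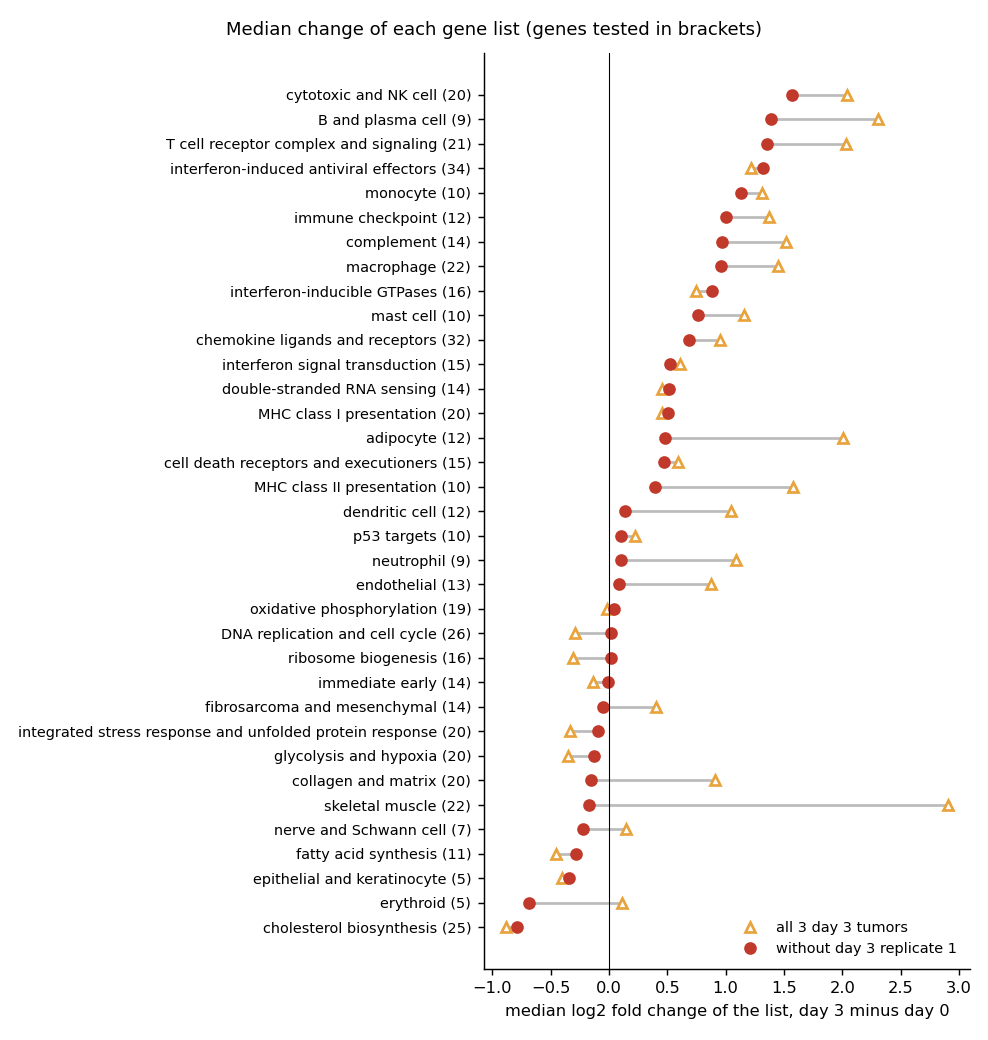
Median log2 fold change, day 3 minus day 0, of 35 gene lists, with all 3 day 3 tumors (open triangles) and without day 3 replicate 1 (red points), and the number of genes tested in brackets. Skeletal muscle moves from 2.91 to -0.17 and collagen and matrix from 0.91 to -0.15, while antiviral effectors stay at 1.22 and 1.32 and cholesterol biosynthesis at -0.88 and -0.79.

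The genes of cholesterol biosynthesis and its regulation were lower on day 3. This pathway is driven by the transcription factor SREBP2, encoded by Srebf2, which is held in the endoplasmic reticulum by INSIG proteins when sterols are abundant. Of 25 genes tested, 22 were lower with all tumors and 25 without day 3 replicate 1. At an unadjusted p under 0.05, 17 and 16 passed as lower, 15 of them in both fits, and 0 as higher. The background for lower genes was 12.1% and 6.56% of all genes. The 5-tumor edgeR fit called 17 lower, DESeq2 called 13 with all tumors and 0 without replicate 1, and the median was -0.88 or -0.79. The summed level was 1603, 1496 and 1215 CPM on day 0 and 641, 819 and 762 CPM on day 3, with all 3 day 3 tumors under the lowest day 0 tumor.

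Early in the pathway, Hmgcs1, a synthase before mevalonate, was at -1.21 ± 0.37 or -1.29 ± 0.43. Idi1, the isomerase that makes the allylic isoprenoid unit, stood at 89.6, 88.4 and 64.3 CPM on day 0 and 22.9, 30.0 and 29.0 CPM on day 3, and Fdps, the farnesyl diphosphate synthase, at 92.1, 102 and 72.1 CPM on day 0 and 36.0, 37.6 and 36.5 CPM on day 3. In Idi1 and Fdps the 3 day 3 tumors were close to one another, and replicate 3 of day 0 was the lowest of its group. Mvk, Mvd and Pmvk, the kinases and decarboxylase of mevalonate, were at 0.03 ± 0.17, -0.22 ± 0.25 and -0.40 ± 0.31 with all tumors, not past an unadjusted p of 0.05.

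In the sterol branch, Sqle, the squalene epoxidase, stood at 107, 93.2 and 72.3 CPM on day 0 and 23.6, 50.1 and 40.2 CPM on day 3. Cyp51, the lanosterol demethylase (chromosome 5, 4081145 to 4104746, minus strand), stood at 73.0, 64.6 and 42.5 CPM on day 0 and 20.0, 20.7 and 18 CPM on day 3, with a difference of -1.62 ± 0.46 that was -1.63 ± 0.55 without replicate 1. Both were lower in every day 3 tumor, and the adjusted p in the 5-tumor edgeR fit was 0.0130 and 0.00663. Srebf2 was at -0.88 ± 0.20 or -0.70 ± 0.19. Insig1, the sterol-sensing partner, stood at 41.4, 43.4 and 30.3 CPM on day 0 and 30.5, 18.8 and 17.2 CPM on day 3, where replicate 1 was the only day 3 tumor to reach the range of day 0.

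**Figure D5:**
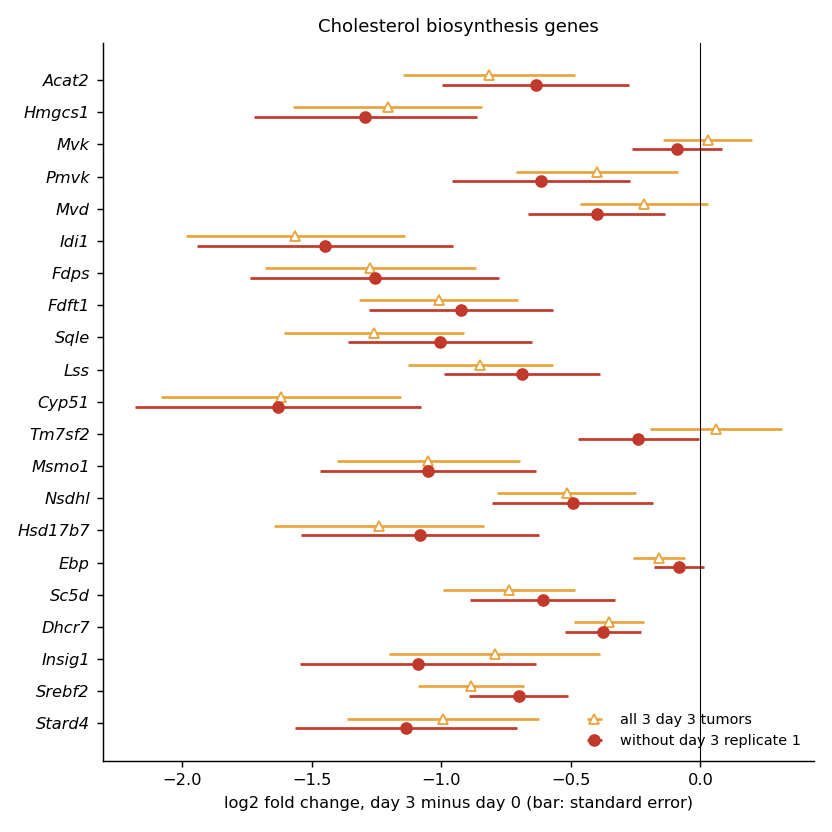
Log2 fold change of day 3 against day 0 with its standard error for 21 genes of cholesterol biosynthesis and its regulation, in pathway order from top, with all 3 day 3 tumors (open triangles) and without day 3 replicate 1 (red points). Nearly all points lie left of 0, and the exceptions with all tumors are Mvk and Tm7sf2, each within its standard error of 0.

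Fatty acid synthesis genes were lower to a lesser degree, with 5 of 11 past an unadjusted p of 0.05 as lower, 3 of them also without day 3 replicate 1, and medians of -0.45 and -0.28. Of all genes, 12.1% and 6.56% passed as lower in the respective fits. Those 3 were Scd2, Elovl6 and Fads2. Scd2, a stearoyl-CoA desaturase, stood at 709.9, 655 and 501 CPM on day 0 and 279, 359 and 393 CPM on day 3. Fasn, the fatty acid synthase, stood at 830.0, 577 and 636 CPM on day 0 and 166, 585 and 517 CPM on day 3. Replicate 1 was far below every other tumor for Fasn, and the difference was -0.69 ± 0.37 with it and -0.30 ± 0.24 without it. The promoter element of SREBP, searched as TCACNCCAC, was in 1 of 20 promoters of cholesterol genes, that of Hmgcs1, against 1.05% of all promoters.

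Most higher values of mesenchymal, matrix, muscle, fat and vessel genes depended on day 3 replicate 1. Some mesenchymal and matrix genes, such as Fn1, were lower with or without it. The 8 genes that dropped most when it was left out were Myh8, Myh1, Cilp, Ckm, Tcap, Atp2a1, Mfap4 and Casq1. Of these, Myh8, Myh1, Ckm, Tcap, Atp2a1 and Casq1 encode proteins of muscle fibers, and Cilp and Mfap4 proteins of cartilage and elastic matrix. Myh1, a fast myosin heavy chain, stood at 14.4, 25.8 and 19.6 CPM on day 0 and 789.7, 20.3 and 11.2 CPM on day 3, and Ckm, the muscle creatine kinase, at 4.05, 14.6 and 13.3 CPM on day 0 and 296, 10.1 and 3.77 CPM on day 3. Atp2a1, the calcium pump of fast muscle, stood at 6.71, 15.8 and 16.3 CPM on day 0 and 499, 19.0 and 6.07 CPM on day 3. Only replicate 1 was high, and the differences went from 3.78, 3.28 and 3.76 to -0.33, -0.59 and -0.03. In all, 239 genes with a mean of at least 5 CPM had a log2 fold change smaller by more than 1 without that tumor. Of 22 skeletal muscle genes, 13 passed an unadjusted p under 0.05 as higher with it and 0 without it. Without it 1 passed as lower, the tropomyosin gene Tpm2 at -0.35 ± 0.08, which DESeq2 called at an adjusted p of 0.0311. The groups were free of overlap in 0 of the 22, against 19.4% higher and 19% lower among all genes. At an unadjusted p under 0.05, 19.4% of all genes passed as higher with replicate 1. Without it, 6.96% passed as higher and 6.56% as lower.

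Of 20 collagen and matrix genes, 6 passed as higher and 2 as lower with replicate 1, and 0 and 5 without it, the latter being Col5a2, Col6a1, Col6a3, Fbn1 and Lox. The shares of all genes that passed as higher and lower were 19.4% and 12.1% with replicate 1, and 6.96% and 6.56% without it. These shares also apply to the mesenchymal and endothelial counts that follow. Col3a1, the fibrillar collagen of soft tissue, stood at 1612, 2514 and 2189 CPM on day 0 and 11177, 1937 and 1793 CPM on day 3. Sparc, a collagen-binding glycoprotein, stood at 1138, 1204 and 1162 CPM on day 0 and 3662, 1105 and 957 CPM on day 3, and Dcn, the proteoglycan decorin, at 26.3, 63.3 and 56.8 CPM on day 0 and 912, 105 and 81.9 CPM on day 3. Replicate 1 was several times above all other tumors in these genes, and replicates 2 and 3 lay in the range of day 0 or just below it, except for Dcn, where they lay just above it. Fn1, the fibronectin gene, stood at 1900.2, 1371 and 1439 CPM on day 0 and 1140.4, 587 and 799.8 CPM on day 3, at -0.90 ± 0.25 or -1.18 ± 0.23, and DESeq2 called it lower without replicate 1 at an adjusted p of 6.83e-04. Of 14 mesenchymal genes, 4 passed as higher with replicate 1 and 0 without it, and 3 passed as lower in both fits, Fn1, Twist1 and Prrx1. Of 13 endothelial genes, 5 passed as higher with replicate 1 and 0 without it, where 1, the tight junction gene Cldn5, passed as lower at -0.97 ± 0.35. Tpm2 and Cldn5 were named after their values were seen. Pecam1, an adhesion molecule of endothelial cells, stood at 69.3, 79.2 and 74.3 CPM on day 0 and 245, 113 and 81.8 CPM on day 3.

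Of 12 adipocyte genes tested, 7 passed as higher with day 3 replicate 1 and 2 without it, Pparg and Lipe, with medians of 2.01 and 0.48. The shares of all genes passing as higher were 19.4% and 6.96%. Pparg, the nuclear receptor of fat cell differentiation that macrophages also express, stood at 1.05, 2.64 and 1.76 CPM on day 0 and 29.7, 5.18 and 7.28 CPM on day 3. Adipoq, the fat cell hormone adiponectin, stood at 0.506, 1.01 and 0.681 CPM on day 0 and 15, 2.43 and 0.0778 CPM on day 3, with replicate 2 above and replicate 3 below the range of day 0. Summed adipocyte levels in replicates 2 and 3 were 187 and 140 CPM, against 81.8 to 133 CPM on day 0, so both lay above the day 0 range.

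Lists of growth and metabolism differed little once that tumor was left out. DNA replication and cell cycle genes had 0 of 26 past an unadjusted p of 0.05 with all tumors and 3 higher without it, and medians of -0.29 and 0.02. Mki67, which encodes the Ki-67 antigen of cycling cells, stood at 511, 551 and 555 CPM on day 0 and 226, 359.6 and 496 CPM on day 3, with all day 3 tumors lower and a difference of -0.58 ± 0.27 or -0.33 ± 0.24. Myc, a transcription factor of growth, stood at 286, 234 and 253 CPM on day 0 and 62.1, 224 and 214 CPM on day 3. Glycolysis and hypoxia genes passed as lower in 2 of 20 cases, Pdk1 and Egln3, and in 0 without replicate 1, with medians of -0.35 and -0.13. For these lists, the shares of all genes passing as higher and lower were 19.4% and 12.1% with all tumors. Without replicate 1 they were 6.96% and 6.56%. Ribosome biogenesis genes had medians of -0.31 and 0.01 with 0 of 16 past the unadjusted threshold in either fit. Oxidative phosphorylation genes stayed at -0.02 and 0.04. Stress response genes had medians of -0.33 and -0.10, and 10 targets of p53 0.23 and 0.10.

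Immediate early genes were split, with 7 higher and 7 lower in both fits and medians of -0.14 and -0.0077. Of 14, 6 passed an unadjusted p under 0.05 as lower and 1 as higher with all tumors, and 5 and 0 without day 3 replicate 1, the 5 being Jun, Junb, Egr1, Egr2 and Ier2. Of all genes, 12.1% and 6.56% passed as lower in these fits, and 19.4% and 6.96% as higher. Egr1, a transcription factor induced by growth factors, stood at 218, 199 and 151 CPM on day 0 and 44.6, 90.4 and 111 CPM on day 3, with every day 3 tumor below day 0 and an adjusted DESeq2 p of 0.0478 without replicate 1. Fos, a partner of the Jun proteins, stood at 23.7, 33.6 and 23.5 CPM on day 0 and 46.6, 40.5 and 41.5 CPM on day 3, with every day 3 tumor above day 0, at 0.67 ± 0.51. Of 7 nerve and Schwann cell genes, 1 passed as higher and 2 as lower with all tumors, and 0 and 1 without replicate 1. Of 5 epithelial and keratinocyte genes, 1 passed as lower with all tumors and 0 without it, and 0 of 5 erythroid genes passed in either fit.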

How the data were processed

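Polyadenylated RNA of 15 tumors was sequenced as single-end reads of 100 bases, and 6 tumors are compared here. The authors estimated transcript abundance with kallisto against the mouse mm10 (GRCm38) reference and summed it to genes. The values they deposited are estimated counts, given as whole numbers in a table of 1 column a tumor. Strandedness and the transcript set are not given in the sources used here. Kallisto divides reads among similar transcripts, so counts of close paralogs are uncertain. Of the entries, 1 bore a date in place of a gene name. That entry, 0.0268% of the counts or less in each tumor, was dropped.

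A gene was tested where its CPM exceeded 0.366 in 3 or more tumors. All 15 tumors entered a quasi-likelihood model in edgeR 4.0.16 under R 4.3.3, scaled by TMM factors and with harvest day as sole term. Tests were two-sided, and p-values were adjusted by Benjamini-Hochberg across the tested genes. The standard error is the log2 fold change divided by the root of the F statistic, and CPM values are TMM-scaled. Alternatives were DESeq2 1.42.0, limma 3.58.1 voom with quality weights, other filters and size factors, fewer tumors and a replicate block. Limits for a count of 0 cover counting error only. Scripts were checked on simulated data. No pair of replicates matched within sampling noise (chi-square over its degrees of freedom at least 9.56).

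The comparison and the 35 gene lists were chosen with earlier results of these data known, so lists are described by counts and medians, with no test of their own. Named genes were the 12 highest and 12 lowest by the rule given in the report, the 8 that dropped most without day 3 replicate 1, and preset genes of each list. Of 94 preset genes, 59 are given with values and the others enter list counts only. A few genes of the lists, 1 of them among the 12 lowest, are not reported here by name. Coordinates are from GENCODE M21 on GRCm38, counted from 1, and 15048 of the 15494 names tested matched a symbol. Promoters are from RefSeq on GRCm38.p6.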

Additional observations from a re-analysis of the deposited data

How the results depend on the processing

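The choice of tool and day 3 replicate 1 both moved the counts. The count of genes at an unadjusted p under 0.05, 4876 with all tumors, ranged from 2094 to 6374 when single tumors were left out, the lowest without day 3 replicate 1 and the highest without day 3 replicate 3. It was 2811 without day 0 replicate 1 and 3212 when only the 6 tumors of day 0 and day 3 were fitted. The count called by an adjusted p, 0 in the main edgeR fit, was 2003 by DESeq2 and 1186 by limma voom with quality weights. With tumors left out it ranged from 0 to 1724, with 4 without day 3 replicate 3 and 1724 in the edgeR fit of the 5 tumors without day 3 replicate 1. That fit and voom without that tumor, which called 501, were chosen after seeing the data, and the cause of the difference between tools was not tested. DESeq2 size factors, no filter, a stricter filter and the older edgeR quasi-likelihood option gave 0 called and 4476 to 5348 genes at the unadjusted threshold. Of the 35 lists, 26 had a median above 0, and 22 to 27 did over all alternatives.

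Replicate numbers are shared between days. Deviations of same-numbered day 0 and day 3 tumors from their day means correlated at -0.29, -0.28 and -0.06. Day 3 replicate 1 deviated most on day 3 for 71.9% of genes, and deviations within a day are tied to one another. These correlations therefore cannot decide whether the numbers pair tumors. With a replicate block 0 genes were called, and 4239 passed the unadjusted threshold.

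Log2 fold changes that turned direction were mostly those of muscle and matrix genes. With voom weights, which gave day 3 replicate 1 a weight of 0.0719, Myh1 was at -0.32, Cilp -0.49, Ckm -0.75, Tcap -0.54, Atp2a1 -0.29, Mfap4 -0.20, Casq1 -0.22, Arg1 0.25, Sparc -0.15 and Col3a1 -0.16. Over all fits with 1 tumor left out, by edgeR, DESeq2 or voom, the values ran from -0.42 to 4.35 for Myh1, -0.61 to 3.88 for Cilp, -0.83 to 3.85 for Ckm, -0.61 to 3.86 for Tcap, -0.35 to 4.33 for Atp2a1 and -0.39 to 4.13 for Mfap4. They ran from -0.28 to 4.03 for Casq1, -0.49 to 0.31 for Arg1, -0.084 to 0.40 for Mlkl, -0.18 to 1.03 for Sparc and -0.22 to 1.64 for Col3a1. Except for Arg1 and Mlkl, the negative ends came from fits without day 3 replicate 1 that also changed the tool, to DESeq2 for Mfap4 and to voom for the others. Genes at a few CPM, such as Cxcl13 on day 0, rest on few counts, and 2 or 3 tumors a day limit every value.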

Other observations

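Axin2 and Wnt9a among the lowest genes, and Tcf7 against its list, led to a look at 18 feedback and target genes of Wnt signaling, a list written after the values of Axin2, Lef1, Tcf7 and Apcdd1 had been seen and therefore given no test. Of 16 tested, 10 were lower on day 3 with all tumors and 11 without day 3 replicate 1, and 6 lay entirely under day 0 while 1 lay entirely above. At an unadjusted edgeR p under 0.05, 5 were lower in each fit, and 2 were higher with all tumors and 1 without that tumor. Those 5 were Axin2, Lef1, Tcf7 and Apcdd1, which had been seen before the list was written, and Notum. The counts and the median rest on them, so they cannot be weighed against all genes. Of all genes, 12.1% and 6.56% passed as lower in these fits, and 19% lay entirely below day 0. The median log2 fold change was -0.42 with it and -0.19 without it. Lef1, the partner of beta-catenin, stood at 13.3, 9.98 and 10.1 CPM on day 0 and 7.61, 6.14 and 5.49 CPM on day 3. Apcdd1, a membrane inhibitor of Wnt ligands, stood at 41.0, 53.3 and 56.3 CPM on day 0 and 21.2, 23.1 and 31.2 CPM on day 3, and Notum, which removes a lipid from Wnt proteins, at 4.05, 2.53 and 4.08 CPM on day 0 and 0.282, 1.58 and 1.83 CPM on day 3. In these genes each day 3 tumor was below each day 0 tumor. Rnf43, a ubiquitin ligase that clears Wnt receptors, stood on the other side, at 2.06 with all tumors and 1.5 without replicate 1, at low levels. Ccnd1 was at -0.40 and 0.03, and Myc at -0.63 and -0.23.

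Several calls of DESeq2 without day 3 replicate 1 were chosen after their values were seen. Siglec1, a macrophage receptor that interferon induces, was at 1.71 without that tumor and 2.14 with it. Igfbp3, which binds insulin-like growth factors, was at -1.15 and -0.94. Sox4, a transcription factor of progenitor cells, was at -0.92 and -1.11. Thbs2, a matrix thrombospondin, was at -0.79 and 0.16. Plat, the tissue plasminogen activator, was at -0.89 and -0.96.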
